A study of Mus musculus with 16 samples.

Results

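The genes described here are the adrenergic receptors and the proteins that make, read, anchor and degrade cyclic AMP (cAMP) in interscapular brown adipose tissue of the mouse. They were chosen by symbol: adrenergic receptors, membrane and soluble adenylyl cyclases, catalytic and regulatory subunits of protein kinase A (PKA), phosphodiesterases (PDE) of the families that act on cAMP, the G protein alpha subunits Gnas and Gnai, the anchors Akap1 and Akap12, Creb1, Crem and the Crtc coactivators, the Epac genes Rapgef3 and Rapgef4, both beta-arrestins and Grk2. Of the 15350 genes with a value in every library, 51 that met this rule are described. They were 5 adrenergic receptors, 4 G protein subunits, 8 adenylyl cyclases, 6 PKA subunits, 2 anchors, 15 phosphodiesterases, 2 Epac genes, 5 genes of the CREB group, 3 genes of receptor desensitization (Arrb1, Arrb2 and Grk2), and Pde4dip. Pde4dip encodes myomegalin, a scaffold protein of the Golgi and centrosome, and matched by its symbol alone. Another 5 symbols of the rule (Adcy1, Adcy8, Adra1b, Adra2a and Adra2c) were not analysed here.

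Noradrenaline from sympathetic nerves activates brown adipocytes through beta receptors, which couple to the stimulatory G protein Gs and so to adenylyl cyclase. The cAMP that is made releases the catalytic subunits of PKA from their regulatory subunits, and PKA then phosphorylates lipolytic proteins and the transcription factor CREB, while Epac proteins carry a branch of cAMP signalling that does not need PKA. Phosphodiesterases, receptor kinases, arrestins and loss of receptor transcripts are the known routes by which the signal is cut back during long stimulation.

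Samples came from C57BL/6J mice of 4 groups with 4 libraries each. Ucp1-knockout (KO) mice that received isoproterenol, an agonist of beta receptors, are called KO isoproterenol, and wild-type mice given the same agent WT isoproterenol. Both were infused by osmotic minipump at 60 mg per kg per day for 3 days, and KO saline and WT saline mice carried saline pumps. UCP1 is the mitochondrial uncoupling protein through which brown fat makes heat. Age, sex and the design of the knockout allele are not given in the labels, nor is it stated whether each library came from a separate animal, so the tests measure the spread between these samples. Levels are counts per 1000000 reads (CPM), which contain a prior of 0.5 reads, and changes are differences of log2 CPM tested with limma over all genes. Values after ± are the standard error (SE) for a change and the standard deviation (SD) for a level. The SE comes from a spread shared by all 4 groups, KO isoproterenol included. It is thus equal for both genotypes and does not measure the spread of the WT libraries alone. The threshold for a call was an adjusted p of 0.05.

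Ucp1 itself, the targeted gene, read 19.0, 268, 848 and 2129 CPM in KO isoproterenol, 8905 to 18458 CPM in the 4 WT isoproterenol libraries, 410 to 1156 CPM in KO saline, and 2298 to 3449 CPM in the 4 WT saline libraries, so every KO library was below every WT library. Libraries held 9004515 to 20986735 reads over the listed genes. The KO isoproterenol libraries stood apart from the other groups and from each other: the median standard deviation of log2 CPM over all genes was 0.442 in KO isoproterenol, 0.236 in WT isoproterenol, 0.246 in KO saline and 0.201 in WT saline. Summed CPM of 12 adipocyte markers was 4531, 12735, 20973 and 35569.5 in KO isoproterenol replicates 1 to 4, against 24720.3 to 25955 in WT isoproterenol; the KO saline libraries lay between 22818 and 26333, and the WT saline libraries between 23890.2 and 27369. Summed CPM of 12 macrophage and monocyte markers was 8544, 2286, 5186 and 1115 in the same KO isoproterenol libraries, against 621 to 1113 in WT isoproterenol; the KO saline libraries lay between 383 and 679, and the WT saline libraries between 275 and 656. No marker of either list was at 0 reads in every library of a group. Replicate 1 of KO isoproterenol had the lowest adipocyte sum and the highest macrophage sum, and results are also given without that library. In whole tissue, fewer cells of a type and less RNA per cell cannot be told apart.

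In the fit of all groups, isoproterenol changed 25 of the 51 genes in KO mice and 9 in WT mice. About as many were higher as lower in both genotypes. In KO, the genes that fell included Adra1d, Akap1, Gnas and Prkaca, and those that rose included Adcy7, Arrb2, Pde1b and Gnai2. In WT, Pde7b, Adcy3, Adcy10, Pde8b and Rapgef4 rose and Adra1d, Adcy9, Crtc2 and Crtc3 fell. The KO count was 49.0% of the members (12 higher and 13 lower), against 48.6% of all genes, of which 23.8% were higher and 24.8% lower. The WT count was 17.6% of the members (5 higher and 4 lower), against 16.6% of all genes, of which 7.6% were higher and 8.98% lower. Both shares were close to the background, so neither count set the pathway apart from the genome. The median change of the members was 0.16 in KO and 0.08 in WT, against medians of -0.00213 in KO and -0.0184 in WT over all genes. Genes called in both genotypes with the same direction numbered 4 (Adra1d, Adcy9, Rapgef4 and Pde7b), and none was called in both with opposite directions. Another 21 were called in KO alone, 5 in WT alone and 21 in neither. All 4 libraries of one treatment lay outside the range of the other for 18 members in KO (9 above and 9 below, against 37.5% of all genes) and 12 in WT (6 above and 6 below, against 32.9%). Fits of the 8 libraries of a genotype alone called 18 members in KO, against 33.7% of all genes, and 13 in WT, against 32.1%. In these fits the spread of KO isoproterenol does not enter the WT test. Same-numbered libraries of the WT groups deviated together in all 4 pairs. Some of unlike number did so too, such as WT isoproterenol replicate 2 and WT saline replicate 1 (correlation 0.37), and the labels state no pairing. With the replicate number as a block the 8 WT libraries gave 16 calls (31.4% of the members, 8 higher and 8 lower), against 34.5% of all genes. This paired WT fit, chosen after seeing the data, held all 9 of the WT calls and added Akap1, Gnas, Adcy6, Pde1b, Pde1c, Pde4a and Pde4d. Its calls for Pde1b (-0.41) and Pde4a (0.33) were opposite in direction to their KO calls (1.43 and -1.35). Being called in 1 genotype and not in the other was not by itself tested as a difference. Without KO isoproterenol replicate 1 the KO count was 27, with 15 higher and 12 lower. The WT count was 4 without WT isoproterenol replicate 4 or without WT saline replicate 2, and 6 or 7 without any other library. No share of all genes is given for fits without 1 library, so these counts have no background.

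**Figure D1:**
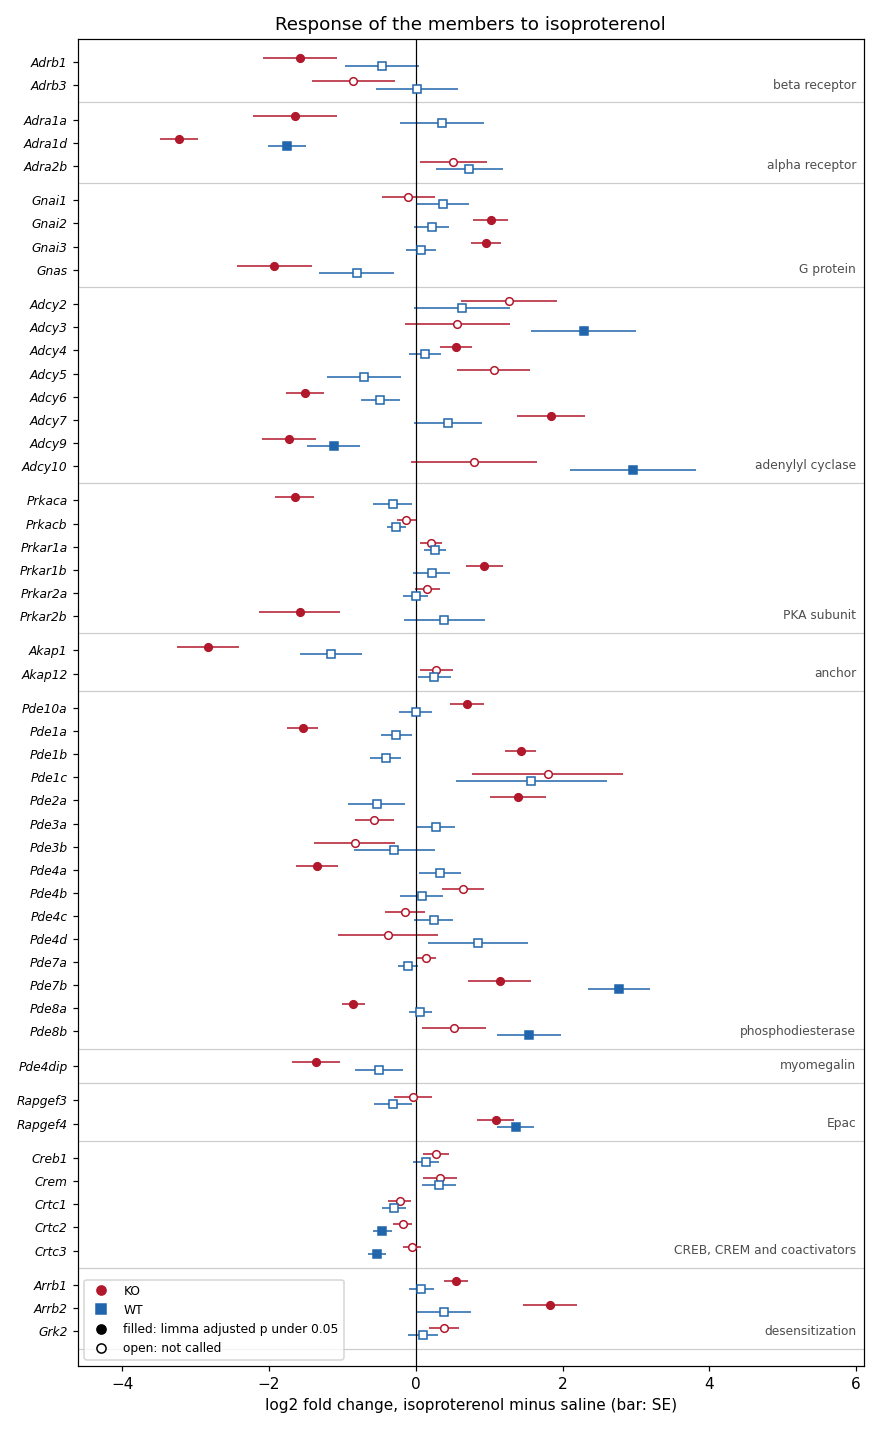
Change of each of the 51 genes under isoproterenol, as the log2 fold change against saline (x axis, bars are SE) for KO (circles) and WT (squares), grouped by role; filled symbols passed an adjusted p under 0.05. In KO 25 symbols are filled and in WT 9; the lowest KO value is Adra1d at -3.23 and the highest WT value is Adcy10 at 2.96.

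Adrb3, the beta receptor most typical of rodent adipocytes, was not called in either genotype. It read 124, 157, 203 and 168 CPM in WT isoproterenol, against 204, 138, 155 and 147 CPM in WT saline. The ranges overlapped almost fully, the change was 0.01 ± 0.56 (adjusted p = 0.992), and its sign turned to -0.10 when log2 CPM was recomputed with library totals. In KO it read 27.3, 46.4, 267 and 266 CPM under isoproterenol, against 172, 225, 142 and 172 CPM under saline. The KO isoproterenol libraries thus fell into 2 low and 2 high values, with no KO saline library outside the gap between them, and the change of -0.85 ± 0.56 was not called (adjusted p = 0.225). It was -0.24 without replicate 1, and -1.33 without replicate 4, where it passed (adjusted p = 0.0411). Gm45470, a transcript listed on the opposite strand over the same exon bases, averaged 7.22 ± 5.97 CPM in KO isoproterenol, 24.8 ± 6.62 in WT isoproterenol, 18.1 ± 7.87 in KO saline and 22.2 ± 4.42 in WT saline (SD, n = 4 each), and the strand setting of the counting is not given.

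Adrb1, the receptor best known from the heart, fell in KO mice. It read 4.97, 25.1, 26.6 and 48.8 CPM in KO isoproterenol, against 67.4, 57.7, 64.6 and 51.1 CPM in KO saline. All KO isoproterenol values lay below all KO saline values, with a change of -1.58 ± 0.50 (adjusted p = 0.0173), and of -0.91 without replicate 1 (adjusted p = 0.0225). A fit of those 8 libraries alone gave an adjusted p of 0.0709. WT libraries read 31.3, 21.9, 29.4 and 41.6 CPM under isoproterenol, against 28.6, 44.2, 32.5 and 72.9 CPM under saline, and its change of -0.46 ± 0.50 was not called (adjusted p = 0.584).

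**Figure D2:**
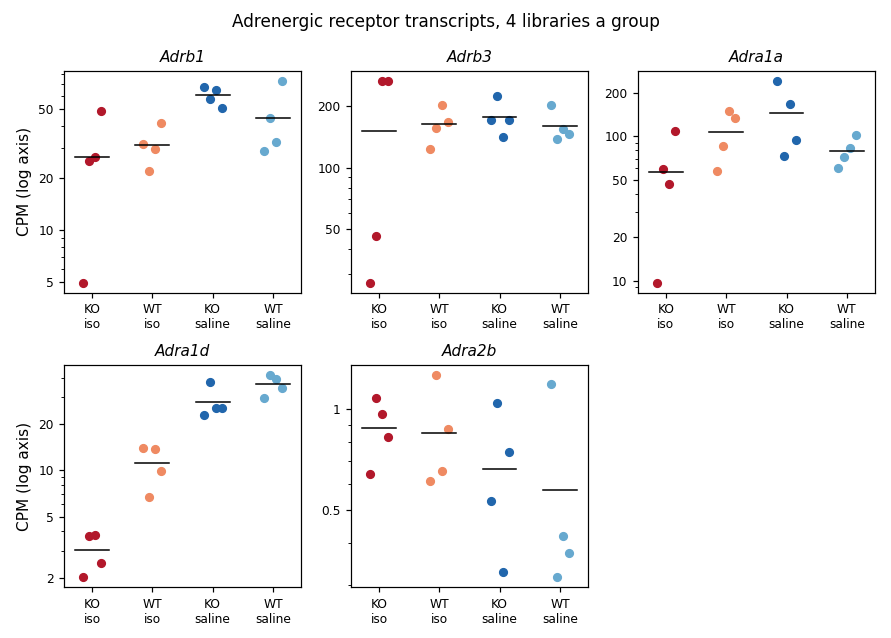
Level of the 5 adrenergic receptor genes in each library (y axis, CPM on a log axis) by group (x axis: KO isoproterenol, WT isoproterenol, KO saline, WT saline); points are libraries and bars are means of 4. Adrb1 lies at 4.97 to 48.8 CPM in KO isoproterenol, below the KO saline libraries, Adra1d is lowest in KO isoproterenol at 2.02 to 3.79 CPM, and Adrb3 splits into low and high values in KO isoproterenol.

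Adra1d showed the steepest fall of the members under isoproterenol in KO, and fell in WT too. Alpha-1 receptors couple to Gq and raise calcium, not cAMP. Adra1d read 2.02, 3.74, 3.79 and 2.48 CPM in KO isoproterenol, against 23.0, 37.4, 25.4 and 25.3 CPM in KO saline. WT libraries read 14.1, 6.72, 13.8 and 9.84 CPM under isoproterenol, against 29.4, 41.7, 39.6 and 34.4 CPM under saline. Neither pair of groups overlapped, with changes of -3.23 ± 0.26 in KO (adjusted p = 5.63e-07) and -1.75 ± 0.26 in WT (adjusted p = 0.000494). The fall was larger in KO by 1.48 ± 0.37 on the log2 scale, written -1.48 for KO minus WT (adjusted p = 0.0112), and this difference kept its call in all 16 fits that left out 1 library. KO isoproterenol replicate 4, whose adipocyte marker sum was above that of every other library, read 2.48 CPM (49 reads). The part of cell composition in the Adra1d result was not tested. Gm14285, listed on the opposite strand of Adra1d, held 8 reads over the KO isoproterenol libraries, 22 over WT isoproterenol, 48 over KO saline and 60 over WT saline. Adra1a, the other alpha-1 receptor, averaged 56.3 ± 41.2 CPM in KO isoproterenol and 144 ± 76.6 CPM in KO saline (SD, n = 4 each), a fall by 1.64 ± 0.58 on the log2 scale (adjusted p = 0.0278). That call was lost in a fit of the 8 KO libraries alone (adjusted p = 0.101), without KO isoproterenol replicate 1 (-0.94, adjusted p = 0.0707), without KO saline replicate 1 (-1.34, adjusted p = 0.088) and without KO saline replicate 3 (-1.52, adjusted p = 0.0673). Adra2b, an alpha-2 receptor that couples to Gi, read at most 1.26 CPM in any library and was not called in any comparison.

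Of the G protein subunits, Gnas fell and Gnai2 and Gnai3 rose in KO mice under isoproterenol, and none of the 4 was called in WT over all 16 libraries. Gnas, the gene of the stimulatory alpha subunit, read 10.6, 34.6, 32.5 and 118 CPM in KO isoproterenol, against 216, 93.1, 175 and 84.1 CPM in KO saline. Replicate 4 lay within the KO saline range and the others below it, and the change was -1.93 ± 0.51 (adjusted p = 0.00584), or -1.36 without replicate 1 (adjusted p = 0.0112). A fit of the 8 KO libraries alone gave an adjusted p of 0.051. In WT, Gnas read 66.9 to 83.0 CPM under isoproterenol and 108 to 174 CPM under saline, groups that did not overlap, with a change of -0.81 ± 0.51 (adjusted p = 0.308), which passed in the paired WT fit (adjusted p = 0.0017). Gnas shares exon bases with Nespas and Gm20721 on the opposite strand and its locus is imprinted with several transcripts, which a gene total cannot separate. Gnai2 and Gnai3 encode inhibitory alpha subunits that are broadly expressed. Gnai2 averaged 526 ± 188 CPM in KO isoproterenol and 250 ± 38.0 CPM in KO saline (SD, n = 4 each), a change of 1.02 ± 0.24 (adjusted p = 0.0025). Gnai3 read 193, 148, 122 and 80.4 CPM in KO isoproterenol, against 75.6, 54.5, 75.6 and 62.5 CPM in KO saline, a change of 0.96 ± 0.21 (adjusted p = 0.00155). In WT it averaged 66.3 ± 7.13 CPM under isoproterenol and 63.2 ± 7.07 CPM under saline (SD, n = 4 each). Gnai1 was not called in either genotype.

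The promoters of 4 members are shown because Adcy3, Pde7b and Pde8b were the membrane cyclase and the phosphodiesterases that rose in WT mice. Prkar1a is shown because it alone, among the 37 members with a promoter found, held a complete cAMP response element (CRE), the site that CREB binds. Each is 300 bases of RefSeq on GRCm38.p6, from 250 bases before to 50 after an annotated start, read 5′ to 3′ on the strand of the gene. The reads were mapped to another build, mm39. Capitals mark the core site TGACG or its reverse complement CGTCA, searched on both strands, and the complete element TGACGTCA holds both in overlap.
Adcy3, chr12:4133147-4133446, plus strand, 1 of 2 promoters: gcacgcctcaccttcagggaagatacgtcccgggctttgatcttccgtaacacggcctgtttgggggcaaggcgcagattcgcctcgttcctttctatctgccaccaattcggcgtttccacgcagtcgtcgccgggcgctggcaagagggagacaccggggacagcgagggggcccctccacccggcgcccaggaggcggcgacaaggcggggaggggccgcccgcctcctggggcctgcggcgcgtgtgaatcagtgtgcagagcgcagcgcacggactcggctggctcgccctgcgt
Pde7b, chr10:20548279-20548578, minus strand, its 1 promoter: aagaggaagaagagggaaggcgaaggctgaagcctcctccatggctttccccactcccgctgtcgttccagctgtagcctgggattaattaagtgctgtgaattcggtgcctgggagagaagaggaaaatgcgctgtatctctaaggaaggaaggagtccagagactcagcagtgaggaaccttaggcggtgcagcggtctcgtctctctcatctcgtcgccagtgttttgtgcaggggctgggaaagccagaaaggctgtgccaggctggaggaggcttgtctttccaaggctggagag
Pde8b, chr13:95223001-95223300, minus strand, 1 of 5 promoters: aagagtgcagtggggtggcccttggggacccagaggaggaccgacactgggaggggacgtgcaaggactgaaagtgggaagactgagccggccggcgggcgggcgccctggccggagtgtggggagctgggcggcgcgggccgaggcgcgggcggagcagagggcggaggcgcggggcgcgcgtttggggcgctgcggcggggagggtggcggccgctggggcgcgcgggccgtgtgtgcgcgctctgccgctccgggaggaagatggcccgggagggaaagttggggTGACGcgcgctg
Prkar1a, chr11:109650612-109650911, plus strand, 1 of 6 promoters: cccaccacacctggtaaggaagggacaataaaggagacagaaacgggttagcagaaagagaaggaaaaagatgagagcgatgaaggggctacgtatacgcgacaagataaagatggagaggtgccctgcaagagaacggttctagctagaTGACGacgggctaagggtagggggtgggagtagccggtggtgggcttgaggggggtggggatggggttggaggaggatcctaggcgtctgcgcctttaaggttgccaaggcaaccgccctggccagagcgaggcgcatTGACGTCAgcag
Promoters were found for 37 of the 51 genes, 80 in all. A core site stood in 21 of these 80 (26.25%) and in 20.8% of 32851 promoters of the same length. The complete element stood in 2 of the 80 (2.5%, both of Prkar1a, in windows that overlap) and in 1.79% of all. The shares were near those of the genome. Of the 5 Pde8b promoters, only the one shown held a core site. Adcy3 and Pde7b, which rose in WT, had no capitals in these windows, and Prkar1a averaged 372 ± 54.5 CPM in KO isoproterenol, 352 ± 44.1 in WT isoproterenol, 321 ± 37.2 in KO saline and 292 ± 9.38 in WT saline (SD, n = 4 each) with no call in any comparison.

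Among the adenylyl cyclases, which make cAMP from ATP, Adcy3 and Adcy10 rose and Adcy9 fell in WT mice. Adcy3, a cyclase best known from olfactory neurons and linked to body weight in mice, read 211, 379, 829 and 734 CPM in WT isoproterenol, against 70.1, 90.8, 109 and 123 CPM in WT saline. The groups did not overlap, and the change was 2.29 ± 0.72 (adjusted p = 0.0403). In a fit of the 8 WT libraries alone the adjusted p was 0.00645, while in the fit of all groups the call held without WT isoproterenol replicate 1 and was lost without each of the other 7 libraries in turn (adjusted p 0.0672 to 0.112). In KO, Adcy3 read 30.6, 205, 303 and 708 CPM under isoproterenol, against 208, 85.4, 190 and 83.5 CPM under saline. The change was 0.56 ± 0.72 (adjusted p = 0.541), and 1.45 without KO isoproterenol replicate 1, where it passed (adjusted p = 0.0264). Cenpo, which shares exon bases with Adcy3 on the opposite strand, averaged 8.14 ± 0.842 CPM in KO isoproterenol, 8.34 ± 2.04 in WT isoproterenol, 7.59 ± 0.789 in KO saline and 8.57 ± 1.42 in WT saline (SD, n = 4 each).

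Adcy10, the soluble cyclase that bicarbonate activates, was a gene of few reads. It read 5.03, 2.97, 10.4 and 11.7 CPM in WT isoproterenol (405 reads in all), against 0.661, 0.406, 1.35 and 1.37 CPM in WT saline (41 reads). The groups did not overlap, and the change was 2.96 ± 0.85 (adjusted p = 0.0281). It lost its call without WT isoproterenol replicate 3 or 4 or WT saline replicate 1 or 2 (adjusted p 0.0648 to 0.0877). Adcy9, a cyclase of broad expression, fell in both genotypes: it read 8.54, 18.9, 11.4 and 18.2 CPM in KO isoproterenol against 54.2, 79.1, 30.4 and 31.0 CPM in KO saline (-1.73 ± 0.37, adjusted p = 0.00134). In WT it read 27.1, 21.7, 43.0 and 34.1 CPM under isoproterenol against 40.3, 55.2, 104 and 83.7 CPM under saline (-1.12 ± 0.37, adjusted p = 0.0474). The KO groups did not overlap, the WT groups did, and the WT call held only without WT isoproterenol replicate 3 or WT saline replicate 1 (adjusted p 0.0726 to 0.147 without any of the other 6). It was lost with voom weights (adjusted p = 0.0522) and with the replicate number as a block over all 16 libraries (adjusted p = 0.0642), and held in the paired WT fit (adjusted p = 0.00035).

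Adcy7 rose and Adcy6 fell in KO mice. Adcy7, a cyclase abundant in cells of the immune system, read 158, 42.9, 82.4 and 19.9 CPM in KO isoproterenol, against 15.5, 14.3, 22.6 and 13.5 CPM in KO saline, a change of 1.84 ± 0.46 (adjusted p = 0.00437). Its highest and lowest KO isoproterenol libraries were also the highest and lowest for the macrophage marker sum, of which 12 of 12 genes were called higher in KO and 3 of 12 in WT; the part of this in the Adcy7 result was not tested. Adcy6, a cyclase inhibited by calcium and the highest of the family in WT saline in CPM per kb of exon, the scale on which levels of different genes can be set side by side, averaged 133 ± 63.8 CPM in KO isoproterenol and 353 ± 62.5 CPM in KO saline (SD, n = 4 each), a fall by 1.51 ± 0.26 on the log2 scale (adjusted p = 0.000294), and the paired WT fit called a change of -0.48 (adjusted p = 0.00891). Adcy4, found in endothelial cells, changed by 0.54 ± 0.22 (adjusted p = 0.0493), a call lost with the 8 KO libraries alone (adjusted p = 0.0961), with voom weights, array weights or the replicate block over all 16 libraries (adjusted p 0.0599 to 0.0738), and without 6 of the 8 KO libraries (all but KO isoproterenol replicate 1 and KO saline replicate 3, adjusted p up to 0.177). Adcy2 and Adcy5 were not called in either genotype. Per kb, Adcy3 made up 38.9% of the summed cyclase level in KO isoproterenol (7.98 to 65.3% over libraries), 51.9% in WT isoproterenol (33.4 to 64.0%), 21.5% in KO saline (13.2 to 28.1%) and 14.3% in WT saline (12.4 to 16.3%). Every WT isoproterenol library was above every saline library in this share, and Adcy6 held the highest share in each saline library.

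**Figure D3:**
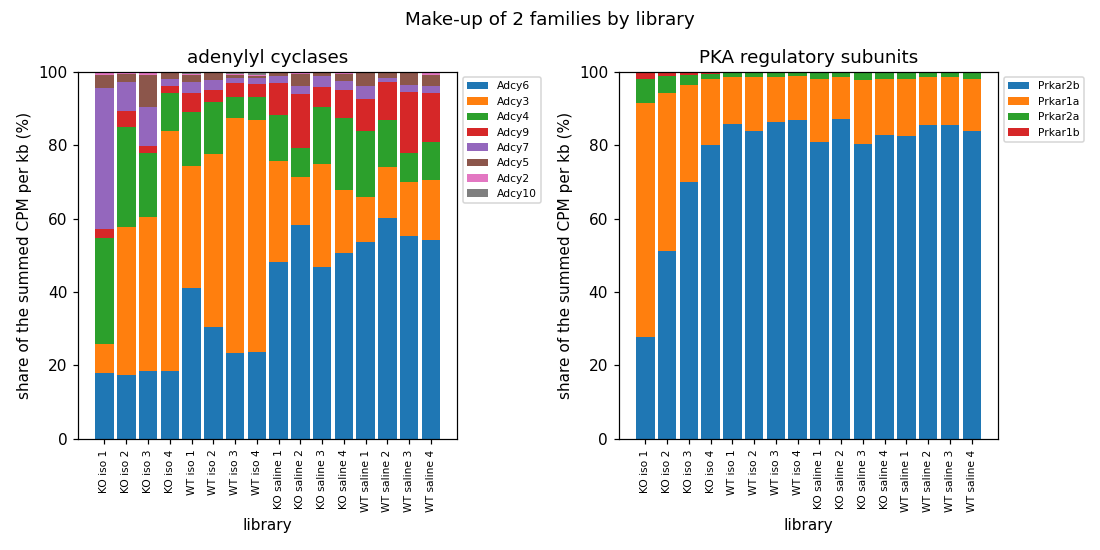
Make-up of the adenylyl cyclases and PKA regulatory subunits in each library (x axis), as the share of the summed CPM per kb of exon (y axis, %). Adcy3 takes 33.4 to 64.0% of the cyclase level in WT isoproterenol libraries, against 12.4 to 16.3% in WT saline, and Prkar2b takes the least of the PKA regulatory level in KO isoproterenol replicate 1.

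Prkaca and Prkar2b, the catalytic and regulatory PKA genes highest per kb in WT saline, fell in KO mice, and no PKA subunit was called in WT. Prkaca, the main catalytic subunit, read 91.5, 143, 210 and 302 CPM in KO isoproterenol, against 528, 532, 543 and 533 CPM in KO saline. All KO isoproterenol libraries were below all KO saline libraries (-1.65 ± 0.27, adjusted p = 0.000178, and -1.35 without replicate 1). In WT it averaged 430 ± 61.5 CPM under isoproterenol and 534 ± 51.1 CPM under saline (SD, n = 4 each), a change of -0.32 ± 0.27 (adjusted p = 0.461), and the responses differed by -1.34 ± 0.38 for KO minus WT (adjusted p = 0.0202). Prkar2b, the type II regulatory subunit that predominates in adipose tissue, read 112, 394, 810 and 1628 CPM in KO isoproterenol, against 1304 to 1835 CPM in KO saline. Replicate 4 was within the KO saline range and the other 3 were below it. The change was -1.58 ± 0.55 (adjusted p = 0.0275), and -0.87 without replicate 1 (adjusted p = 0.05), and the call was lost with the 8 KO libraries alone (adjusted p = 0.119) and without KO isoproterenol replicate 2, KO saline replicate 1 or KO saline replicate 2 (adjusted p up to 0.0667). Prkar1b, a regulatory subunit best known from neurons, rose in KO by 0.93 ± 0.26 (adjusted p = 0.00733), with means of 9.77 ± 1.36 CPM in KO isoproterenol and 5.22 ± 1.41 CPM in KO saline (SD, n = 4 each). Prkacb, Prkar1a and Prkar2a were not called in any comparison.

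Akap1, which tethers PKA to the outer mitochondrial membrane, fell in KO mice to 31.0, 85.3, 126 and 248 CPM under isoproterenol, against 782, 671, 788 and 510 CPM under saline. The groups did not overlap, and the change of -2.83 ± 0.42 (adjusted p = 9.81e-05) was -2.29 without replicate 1. In WT it read 368, 301, 429 and 343 CPM under isoproterenol, against 767, 868, 803 and 743 CPM under saline. These groups did not overlap either, but the change of -1.15 ± 0.42 was not called in the fit of all groups (adjusted p = 0.0765). The paired WT fit called it (adjusted p = 0.000207), and its other WT fits are not given here. The difference of the responses was -1.68 ± 0.60 (adjusted p = 0.0524). Akap12, a scaffold at the plasma membrane that binds PKA, was not called in any comparison. Pde4dip averaged 52.1 ± 7.56 CPM in KO isoproterenol and 136 ± 32.9 CPM in KO saline (SD, n = 4 each), a fall by 1.36 ± 0.33 on the log2 scale (adjusted p = 0.00345). It read 379 CPM in WT saline replicate 4, against 102 to 140 CPM in the other WT saline libraries, and that library had a skeletal muscle marker sum of 8008 CPM, against 18.8 to 1259 CPM in the other WT saline libraries; the part of muscle in its value was not tested.

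Phosphodiesterases, which hydrolyse cAMP or cyclic GMP, held 15 of the 51 genes. In KO mice 4 rose and 3 fell, and in WT mice 2 rose and none fell, or 5 and 1 in the paired WT fit. Pde7b, a cAMP-specific enzyme of high affinity, rose in both genotypes. KO libraries read 21.7, 28.02, 51.4 and 93.8 CPM under isoproterenol, against 21.4, 22.5, 15.2 and 16.8 CPM under saline. In WT isoproterenol it read 51.4, 92.3, 175 and 135 CPM, against 9.21, 17.02, 16.1 and 20.5 CPM in WT saline. WT libraries separated by treatment and KO libraries overlapped at KO isoproterenol replicate 1. The changes were 1.14 ± 0.43 in KO (adjusted p = 0.0373) and 2.77 ± 0.43 in WT (adjusted p = 0.000671), and their difference of -1.63 ± 0.60 was not called (adjusted p = 0.0608). The WT call held without each library in turn, and the KO call held without KO isoproterenol replicate 1 or 2 or KO saline replicate 2 and was lost without each of the other 5 (adjusted p 0.0526 to 0.114), with a change of 0.75 without KO isoproterenol replicate 4 and an adjusted p of 0.0647 with the 8 KO libraries alone. Pde8b, another cAMP-specific enzyme of high affinity, read 5.13, 3.06, 2.66 and 3.26 CPM in WT isoproterenol (175 reads), against 1.54, 0.587, 1.63 and 1.29 CPM in WT saline (55 reads). The groups did not overlap (1.54 ± 0.44, adjusted p = 0.0257), and the call was lost without WT isoproterenol replicate 1 or 4 or WT saline replicate 2 or 4 (adjusted p 0.0501 to 0.0878) and with voom weights (adjusted p = 0.062).

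**Figure D4:**
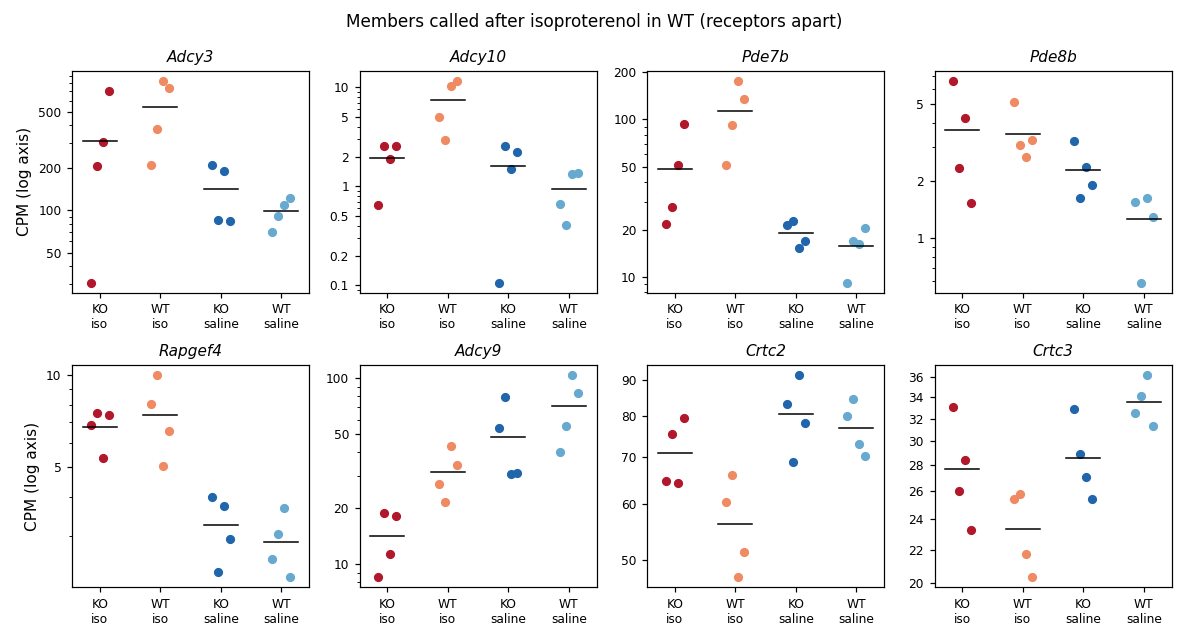
Level of the 8 non-receptor genes called in WT mice in each library (y axis, CPM on a log axis) by group (x axis: KO isoproterenol, WT isoproterenol, KO saline, WT saline); points are libraries and bars are means of 4. Pde7b lies at 51.4 to 175 CPM in WT isoproterenol, above the WT saline libraries at 9.21 to 20.5 CPM, and Adcy3 in KO isoproterenol spreads over 30.6 to 708 CPM.

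Pde1b, Pde2a, Pde4a, Pde1a and Pde8a responded differently in the 2 genotypes. Pde1b, an enzyme that calcium and calmodulin activate, read 57.9, 34.8, 35.8 and 30.5 CPM in KO isoproterenol, against 15.8, 12.9, 18.8 and 10.7 CPM in KO saline (1.43 ± 0.21, adjusted p = 8.91e-05). In WT it read 15.2, 14.3, 9.83 and 11.9 CPM under isoproterenol, against 16.8, 18.7, 17.4 and 14.5 CPM under saline (-0.41 ± 0.21, adjusted p = 0.208, and 0.0488 in the paired WT fit). All KO isoproterenol libraries lay above all others, and the responses differed by 1.84 ± 0.30 (adjusted p = 0.00147). Pde4a, a cAMP-specific enzyme of the family that PKA activates, read 25.3, 38.9, 42.9 and 79.1 CPM in KO isoproterenol, against 91.2, 161, 75.3 and 128 CPM in KO saline (-1.35 ± 0.29, adjusted p = 0.00139), with replicate 4 inside the KO saline range. WT libraries read 154, 145, 188 and 180 CPM under isoproterenol, against 105, 148, 138 and 140 CPM under saline (0.33 ± 0.29, adjusted p = 0.476, and 0.0466 in the paired WT fit). The difference of the responses was -1.68 ± 0.40 (adjusted p = 0.00988).

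Pde1a, a calcium-activated enzyme like Pde1b, fell in KO to 12.2, 16.2, 14.5 and 30.9 CPM under isoproterenol, against 51.6, 55.3, 49.8 and 44.3 CPM under saline. Its change was -1.54 ± 0.21 in KO (adjusted p = 4.84e-05) and -0.27 ± 0.21 in WT (adjusted p = 0.428), and the difference was -1.27 ± 0.30 (adjusted p = 0.00889). Pde1a and Pde1b thus moved in opposite directions in the same KO libraries. Pde8a averaged 55.8 ± 8.31 CPM in KO isoproterenol, 118 ± 17.8 in WT isoproterenol, 100 ± 13.4 in KO saline and 114 ± 18.1 in WT saline (SD, n = 4 each), with a difference of responses of -0.91 ± 0.22 (adjusted p = 0.00986). Pde2a, which cyclic GMP stimulates, had 61 reads over the KO isoproterenol libraries, 21 over WT isoproterenol, 13 over KO saline and 29 over WT saline. It shares exon bases with Gm45837 on the same strand, so reads there are ambiguous under any strand setting. Its change was 1.39 in KO (called) and -0.53 in WT (not called), and the responses differed by 1.92 ± 0.55 (adjusted p = 0.0208). KO minus WT under saline was -1.08, not called. Pde10a rose in KO by 0.70 ± 0.23 (adjusted p = 0.0185), a call lost without KO saline replicate 2 or 4 (adjusted p up to 0.0634) and with the 8 KO libraries alone (adjusted p = 0.0592).

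The phosphodiesterases best known from adipocytes were not called over all 16 libraries. Pde3b, which insulin activates to restrain lipolysis, read 42.7, 187, 322 and 604 CPM in KO isoproterenol, against 295 to 418 CPM in KO saline, a change of -0.83 ± 0.55 (adjusted p = 0.227). Its WT values were 212 to 485 CPM under isoproterenol and 336 to 455 CPM under saline (-0.29 ± 0.55, adjusted p = 0.765). Pde4d read 8.30, 117, 94.9 and 213 CPM in KO isoproterenol, against 75.9 to 96.2 CPM in KO saline, and 106 to 250 CPM in WT isoproterenol, against 62.6 to 108 CPM in WT saline. Its changes of -0.38 ± 0.68 in KO and 0.84 ± 0.68 in WT were not called (adjusted p = 0.671 and 0.441), but Pde4d passed in the paired WT fit (adjusted p = 0.000584). Both genes had their lowest value of all 16 libraries in KO isoproterenol replicate 1. Pde4b, Pde4c, Pde3a and Pde7a were not called in either genotype under isoproterenol, and Pde1c, with 241 reads in all 16 libraries, passed in the paired WT fit (1.57, adjusted p = 0.0402).

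Rapgef4, which encodes Epac2, rose in both genotypes, and Rapgef3, which encodes Epac1, was not called. Rapgef4 read 6.87, 7.51, 5.36 and 7.39 CPM in KO isoproterenol, against 4.002, 2.29, 3.74 and 2.93 CPM in KO saline. In WT it read 8.04, 9.98, 5.07 and 6.55 CPM under isoproterenol, against 2.51, 3.02, 3.68 and 2.20 CPM under saline. No isoproterenol library overlapped a saline library of its genotype. The changes were 1.09 ± 0.25 in KO (adjusted p = 0.00231) and 1.36 ± 0.25 in WT (adjusted p = 0.00217), and their difference of -0.27 ± 0.35 was not called (adjusted p = 0.6). Both calls held without each library in turn, with changes of 0.93 to 1.20 in KO and 1.20 to 1.53 in WT.

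In the CREB group, Crtc2 and Crtc3, coactivators that PKA signalling sends to the nucleus, fell in WT mice by less than the other called genes. Crtc3 read 25.4, 25.8, 21.7 and 20.3 CPM in WT isoproterenol, against 32.5, 34.2, 36.2 and 31.3 CPM in WT saline (-0.53 ± 0.13, adjusted p = 0.0108). Crtc2 read 60.5, 65.9, 47.4 and 51.4 CPM in WT isoproterenol, against 79.8, 84.5, 73.0 and 70.2 CPM in WT saline (-0.46 ± 0.13, adjusted p = 0.0235). Neither pair of groups overlapped, and the Crtc2 call was lost without WT isoproterenol replicate 3 or 4 or WT saline replicate 1 or 2 (adjusted p 0.0581 to 0.0783). In KO the changes were -0.05 ± 0.13 for Crtc3 and -0.18 ± 0.13 for Crtc2, not called. Creb1 and Crtc1 were not called in either genotype. Crem changed by 0.32 ± 0.23 in KO (adjusted p = 0.264) and 0.31 ± 0.23 in WT (adjusted p = 0.401), and was called in KO without KO isoproterenol replicate 1 (0.64, adjusted p = 0.00166). The gene total of Crem does not separate ICER, the short cAMP-induced repressor made from an internal promoter.

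Of the genes that switch receptors off, the arrestins were called higher in KO, Arrb1 with groups that overlapped, and none was called in WT. Arrb2, which encodes beta-arrestin 2, read 133, 43.0, 103 and 29.8 CPM in KO isoproterenol, against 16.8, 14.2, 22.4 and 20.5 CPM in KO saline. The groups did not overlap (1.83 ± 0.37, adjusted p = 0.000983, and 1.48 without replicate 1). As with Adcy7, its highest library was replicate 1 and its lowest replicate 4, the extremes also of the macrophage sum, of the neutrophil sum (468, 144, 190 and 71.7 CPM) and of the fibroblast and progenitor sum (6714, 1875, 4769 and 1626 CPM). In WT Arrb2 averaged 23.4 ± 3.85 CPM under isoproterenol and 18.2 ± 5.31 CPM under saline (SD, n = 4 each), a change of 0.39 ± 0.37 (adjusted p = 0.523). Arrb1 averaged 95.6 ± 21.5 CPM in KO isoproterenol and 64.6 ± 6.41 CPM in KO saline (0.54 ± 0.17, adjusted p = 0.0139). These KO groups overlapped, at 72.7 CPM in KO isoproterenol replicate 2 and 73.8 CPM in KO saline replicate 2. In WT, Arrb1 read 83.6 to 108 CPM under isoproterenol and 72.8 to 117 CPM under saline. KO minus WT for Arrb1 was -0.06 under isoproterenol and -0.53 under saline, neither called in the fit of all groups. The part of low KO saline levels in the Arrb1 call was not tested. Grk2, the kinase that marks occupied beta receptors for arrestin, averaged 152 ± 63.1 CPM in KO isoproterenol, 111 ± 5.47 in WT isoproterenol, 110 ± 2.97 in KO saline and 104 ± 2.87 in WT saline, with no call.

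Without the drug, no call separated KO from WT among the 51 genes. None passed in KO saline against WT saline, where 0.0977% of all genes passed (0.0717% higher and 0.0261% lower), and 3 members had an unadjusted p under 0.05 with limma. These were Pde3a (0.79 ± 0.26, adjusted p = 0.525), Arrb1 (-0.53 ± 0.17, adjusted p = 0.465) and Pde2a (-1.08 ± 0.39, adjusted p = 0.576), named after their values were seen. With limma's array weights, which let each library count by its precision, Pde3a (0.95, adjusted p = 0.0201) and Arrb1 (-0.58, adjusted p = 0.0276) passed. No member separated all KO saline from all WT saline libraries, against 7.19% of all genes. KO minus WT was 0.52 ± 0.50 for Adrb1 and 0.14 ± 0.56 for Adrb3.

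Under isoproterenol, KO and WT differed in 19 of the 51 genes (37.3%, 8 higher and 11 lower in KO), against 44.6% of all genes, of which 21.6% were higher and 23.1% lower. The 4 members lowest in KO against WT were Prkar2b (-1.997 ± 0.55, adjusted p = 0.00888, -1.28 without KO isoproterenol replicate 1), Pde4a (-1.95 ± 0.29, adjusted p = 0.000127), Akap1 (-1.91 ± 0.42, adjusted p = 0.0022) and Adra1d (-1.88 ± 0.26, adjusted p = 8.31e-05). The Prkar2b call was lost in the fit of the 8 isoproterenol libraries alone (adjusted p = 0.0675). The 4 highest were Pde1b (1.61 ± 0.21, adjusted p = 5.84e-05), Adcy7 (1.53 ± 0.46, adjusted p = 0.0146), Arrb2 (1.48 ± 0.37, adjusted p = 0.00468) and Prkar1b (1.04 ± 0.26, adjusted p = 0.00412). In those 8 libraries alone the Adcy7 call was lost (adjusted p = 0.0646). Libraries of KO and WT did not overlap for 16 members, against 35.5% of all genes, and the 8 isoproterenol libraries alone gave 14 calls, against 30.2%. With library totals in place of the authors' scaling 26 were called, with 15 higher and 11 lower. The responses to isoproterenol themselves differed in 8 of the 51 genes (15.7%), against 24.7% of all genes, a share below the background. Adra1d, Prkaca, Pde1a, Pde4a and Pde8a had the lower response in KO, and Pde1b, Pde2a and Gnai3 (0.89 ± 0.29, adjusted p = 0.0382) the higher one. With library totals 14 were called, with 9 higher and 5 lower, and without KO isoproterenol replicate 4 the count was 19. Library totals also shifted the all-gene median of the difference by 0.29. No share of all genes is given for the counts with library totals or without 1 library. The Gnai3 call held in 6 of 16 fits without 1 library, while the other 7 held in all 16.

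**Figure D5:**
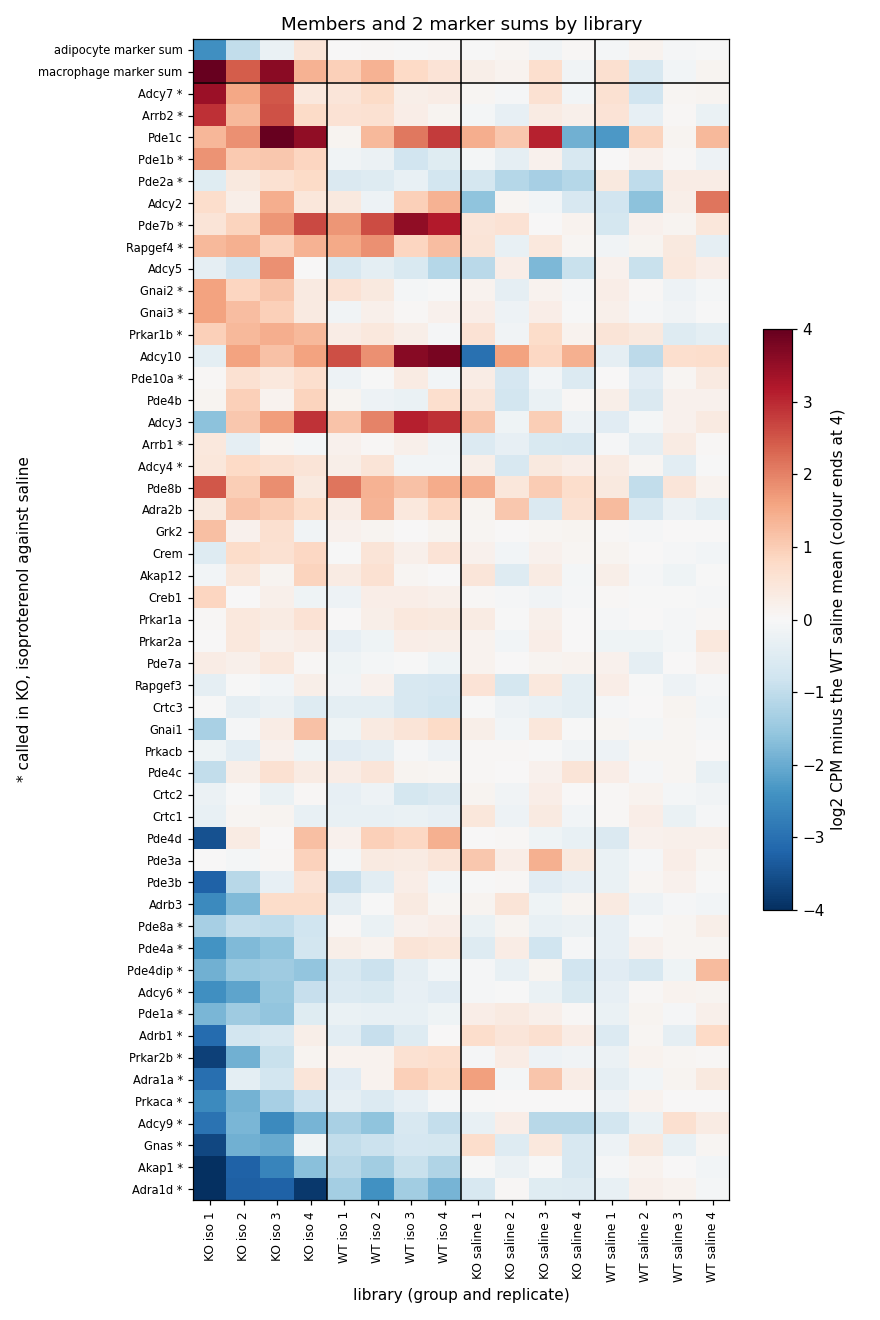
Log2 CPM of the 51 genes and of 2 marker sums in each library (columns), minus the WT saline mean (colour, red higher and blue lower); rows run from the highest to the lowest change under isoproterenol in KO, and stars mark the 25 called there. KO isoproterenol replicate 1 has the lowest adipocyte sum (4531 CPM) and the highest macrophage sum (8544 CPM), and the genes at the foot of the map are lowest in it, with Adra1d low in all 4 KO isoproterenol libraries.

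Of the 51 genes, 33 had their lowest KO isoproterenol value in replicate 1 and 11 in replicate 4, and 24 had their highest in replicate 4 and 10 in replicate 1. The order of the adipocyte sum over the 4 libraries was followed by 11 genes and that of the macrophage sum by 8. Shares over all genes are not given for these counts of lowest, highest and order, so they do not set the members apart. Prkar2b, Akap1, Prkaca, Gnas, Adrb1, Adrb3, Pde3b, Pde4a and Adcy3 were among those lowest in replicate 1, where the adipocyte sum was 4531 CPM, and Adcy7, Arrb2, Gnai2, Gnai3 and Grk2 among those highest there, where the macrophage sum was 8544 CPM. In KO under isoproterenol 8 of 12 adipocyte markers were called lower and 1 higher, and in WT 2 were lower. Of 12 brown adipocyte markers 6 were called lower and none higher in KO, and 1 was called higher and none lower in WT. Their summed CPM was 255, 4328, 5509 and 15438 in KO isoproterenol replicates 1 to 4. The KO saline libraries lay between 8581 and 11438. WT libraries held 17157 to 30588 CPM with the agent and 9637 to 12947 CPM without it. All 5 erythroid markers were called lower in KO, and none was called in WT. Of 7 neutrophil markers 6 were called higher in KO and 3 in WT, and of 10 fibroblast and progenitor markers 4 in KO and 1 in WT. Adra1d, also lowest in replicate 1, was next lowest in replicate 4 (2.48 CPM, 49 reads), which had the highest adipocyte sum. All values were those of whole tissue, and the part of cell composition in the changes of the members, Adra1d included, was not tested.

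Further genes of the pathway were followed in 9 lists, 143 genes in all, outside the rule. In KO mice 64 of the 143 were called (36 higher and 28 lower, 44.8%, against 48.6% of all genes), and in WT mice 17 (6 higher and 11 lower, 11.9%, against 16.6%), or 56 in the paired WT fit (20 higher and 36 lower, against 34.5%). The median change over the 143 was 0.10 in KO and -0.11 in WT. Among G protein subunits, 1 of 17 rose and 4 fell in KO and 2 fell in WT. Gng7, a gamma subunit, fell in both genotypes (-3.17 ± 0.26 in KO, adjusted p = 6.69e-07, and -2.33 ± 0.26 in WT, adjusted p = 6.05e-05). Other Gs-coupled receptors and accessory proteins gave 5 higher and 2 lower of 17 in KO and 1 higher and 1 lower in WT. Adora2b, an adenosine receptor, rose by 3.39 in KO (adjusted p = 0.00144) and Sctr, the secretin receptor, fell by 2.27 (adjusted p = 9.55e-05), while Ramp3, a receptor accessory protein, rose by 1.47 in KO (adjusted p = 0.00251) and by 1.74 in WT (adjusted p = 0.00334). Of 10 Gi-coupled receptors that oppose cAMP, 2 rose and 3 fell in KO and 2 fell in WT. Hcar1, the lactate receptor, fell in both (-1.96 in KO, adjusted p = 0.000105, and -1.54 in WT, adjusted p = 0.00295), and Adora1, the adenosine A1 receptor, fell by 2.87 in KO (adjusted p = 0.00164).

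Among 15 inhibitors of PKA and other enzymes or sensors of cyclic nucleotides, 6 rose and 2 fell in KO and 1 rose and 2 fell in WT. Pkib, a PKA inhibitor, rose by 4.65 in KO (adjusted p = 0.00013), and Popdc2, a membrane protein that binds cAMP, fell by 4.16 (adjusted p = 1.74e-07). Of 18 other receptor kinases and RGS proteins, which shorten G protein signals, 8 rose and 3 fell in KO and 1 rose and 1 fell in WT. Rgs1, best known from lymphocytes and macrophages, rose by 5.31 in KO (adjusted p = 0.000204), and Grk3, a receptor kinase close to Grk2, fell by 1.68 (adjusted p = 0.000162). Of 13 other A-kinase anchors, 3 rose and 4 fell in KO and 1 fell in WT. Akap5, an anchor at the plasma membrane, fell by 2.67 in KO (adjusted p = 4.9e-05) and by 1.67 in WT (adjusted p = 0.0069).

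Of 24 immediate or CREB-bound targets of cAMP, 7 rose and 1 fell in KO: Il6 rose by 3.49 (adjusted p = 0.000683) and Atf3 by 3.36 (adjusted p = 0.00104). None was called in WT with limma at an adjusted p under 0.05, though 3 had an unadjusted p under 0.05 and the paired WT fit called 4 higher and 7 lower. Il6, a cytokine, and Atf3, a stress transcription factor, are also expressed by macrophages, whose marker sum is given above. Among 17 CREB partners and salt-inducible kinases, 3 rose and 4 fell in KO and 1 rose and 2 fell in WT. Sik2, a kinase that holds Crtc proteins in the cytoplasm, fell by 1.40 in KO (adjusted p = 0.0302), a call lost in 6 of the 8 fits without 1 library and with the 8 KO libraries alone (adjusted p = 0.0869). Of 12 lipolysis effectors of PKA, 1 rose and 5 fell in KO and 2 rose in WT. Cidea, a protein of lipid droplets, fell by 2.59 (adjusted p = 0.0318) and Pnpla2, the first lipase of triglyceride breakdown, by 1.64 (adjusted p = 0.036) in KO, both lost in 4 or more of the 8 fits without 1 library and with the 8 KO libraries alone (adjusted p = 0.133 and 0.146). Plin2, a lipid droplet coat protein, rose by 1.50 in KO (adjusted p = 0.00409) and by 1.25 in WT (adjusted p = 0.0327), the WT call holding in 1 of 8 such fits.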

How the data were processed

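RNA was measured by sequencing of whole interscapular brown adipose tissue, with 16 libraries in 4 groups. Reads were mapped with STAR to mm39 and the table was made with limma, per the submitters' processing notes, which give no versions; the counter, its strand setting and the annotation were not stated in those notes or in the labels. The authors deposited log2 CPM per gene for 15350 genes, each value log2 of the reads plus 0.5 per 1000000 scaled reads. Whole reads were recovered from every value within 1e-06, and 1 read was worth 0.0476 to 0.115 CPM, which limits precision at the low genes. Symbols came from the Ensembl IDs for 15320 genes. Column numbers and sample titles differ for 3 KO saline libraries, which were matched by name. Deviations from the group means correlated at 0.21 to 0.54 in the 4 same-numbered pairs of WT isoproterenol and WT saline, all over the limit of 0.1, so the WT response was also fitted with the replicate number as a block. Some pairs of unlike number passed that limit too. These were WT isoproterenol replicates 1 and 2 with WT saline replicates 2 and 1 (0.18 and 0.37). WT isoproterenol replicates 3 and 4 with WT saline replicates 4 and 3 were others (0.35 and 0.20). The correlations thus do not single out same-numbered pairs, and the labels state no pairing. In the other comparisons 0 to 2 of 4 same-numbered pairs passed the limit (-0.43 to 0.24), and no pairing was used in the fit of all groups. The replicate block over all 16 libraries was an alternative only. It took the numbers of the sample titles, which differ from the column numbers for 3 KO saline libraries.

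Group means were fitted to the deposited log2 values with limma 3.58.1 in R 4.3.3 over the 16 libraries, with trend and robust moderation (statmod 1.5.0), and p-values were adjusted by Benjamini-Hochberg over 15350 genes for each of 5 contrasts. The labels do not say that libraries are separate animals, so the p-values may reflect only technical spread among samples. The tests were checked on simulated data. All groups had the same spread there, so that check does not cover the wider spread of KO isoproterenol. Alternatives were library totals, a mean CPM of at least 1, a pseudocount of 2 reads, voom weights, array weights, a replicate block, the 8 libraries of a contrast alone and each library left out. The members, the lists and the tests were chosen with earlier results of these data known. Another gene that met the rule is not reported here. Named were Adrb1 and Adrb3, up to 6 called members each way by size per isoproterenol contrast, up to 4 per genotype contrast or difference, further members by role, and up to 2 called genes each way per pathway list. Promoters came from RefSeq for GRCm38.p6 by symbol. Tables and figures used pandas 2.3.3, numpy 2.4.6 and matplotlib 3.10.9.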

Additional observations from a re-analysis of the deposited data

Results flagged for a closer look

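Over the 51 members and 4 groups, 9 of 204 sets of 4 libraries had 1 library past the critical gap for 4 samples, taken as a share of the range on the log2 CPM scale, and chance passes it in about 1 of 20. Adcy10 read 0.106 CPM in KO saline replicate 1, against 1.49 to 2.54 CPM in the other KO saline libraries, and Pde2a read 0.316 CPM in WT saline replicate 2, against 0.789 to 0.838 CPM in the other WT saline libraries; both had few reads. WT saline libraries also stood apart for Pde4b (17.8 CPM in replicate 2, others 30.3 to 31.5), Pde4d (62.6 CPM in replicate 1, others 104 to 108) and Prkar2a (61.1 CPM in replicate 4, others 39.8 to 42.5). In KO isoproterenol, Crem read 12.7 CPM in replicate 1, with 28.1 to 32.3 CPM in the others, and Pde3a 38.3 CPM in replicate 4, with 19.2 to 21.1 CPM in the others. Creb1 read 30.9 CPM in WT isoproterenol replicate 1 and 40.6 to 42.6 CPM in the others, and Pde8a 120.4 CPM in KO saline replicate 2 and 91.9 to 95.6 CPM in the others.

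The isoproterenol response differed between KO and WT, by limma's test of the difference itself, for 8 members. KO minus WT was -1.68 for Pde4a, -1.48 for Adra1d, -1.34 for Prkaca, -1.27 for Pde1a and -0.91 for Pde8a, and it was 1.92 for Pde2a, 1.84 for Pde1b and 0.89 for Gnai3. The adipocyte and macrophage marker sums of the KO isoproterenol libraries moved too, and their part in these differences was not tested.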

How the results depend on the processing

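For the 120 single-gene results that were called or named (70 of members and 50 of pathway genes), 1893 values under an alternative were computed: 1675 kept their direction and their side of the threshold, 207 lost the call, 1 gained one and 10 changed sign, while gains of uncalled members are outside this count. The cause of these changes was not tested. Shares of all genes were computed only for the fit of all groups, the 8 libraries of a contrast alone and the paired WT fit. The other counts below have no background. With array weights the members called numbered 16 in WT, 2 under saline and 22 for the difference of responses, and the pathway genes 40 in WT and 59 for the difference. With library totals the difference gave 14 members. The 8 libraries alone gave 40 pathway genes in KO and 38 in WT. Leaving out 1 library gave 22 to 27 members in KO, 4 to 7 in WT, 15 to 25 for KO against WT under isoproterenol and 7 to 19 for the difference, and 50 to 75 pathway genes in KO, 8 to 14 in WT and 21 to 53 for the difference. Library totals shifted the all-gene median change by 0.18 for KO, -0.11 for WT, 0.26 between genotypes under isoproterenol and 0.29 for the difference, and split pathway calls as 44 higher and 22 lower in KO, 3 and 15 in WT and 32 and 5 for the difference. Adrb3 changed sign in WT with library totals (-0.0999) and voom weights (-0.000769), and ranged over -0.0999 to 0.138 with 1 library left out. With array weights Adrb3 was 0.37 in KO, 0.36 for KO against WT under isoproterenol and 0.28 for the difference. The weight was 3.37 for KO isoproterenol replicate 3, against 0.167, 0.314 and 0.263 for replicates 1, 2 and 4. Results with array weights that involve KO isoproterenol, counts included, thus rest largely on 1 library. Adrb1 under isoproterenol, KO against WT, ranged over -1.02 to 0.0781 with 1 library left out. With the replicate block over all 16 libraries 24 members were called in KO, 8 in WT, 0 under saline, 18 for KO against WT under isoproterenol and 11 for the difference, and 64 pathway genes in KO, 16 in WT and 32 for the difference. The block in the 8 WT libraries alone, added after seeing the data, gave 16 members and 56 pathway genes. Depth limits Pde2a, Adra2b, Pde1c and Adcy2 most, with 124 to 320 reads over all libraries.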
